A study of Mus musculus with 9 samples.

Results

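The 9 genes described here encode calprotectin and proteins of the granules and of the mature neutrophil. They were chosen by gene symbol from the 27719 genes of a count table from mouse colon. They are S100a8 and S100a9, which encode the subunits of calprotectin, Ngp, Camp, Ltf and Mpo, which encode granule proteins, and Retnlg, Stfa2l1 and Ly6g, which are genes of mature neutrophils. All 9 were in the table, and 8 of them had enough reads to be tested, together with 12566 genes in all. Calprotectin reads were far higher in DSS mice than in control mice. With EA they were lower than with DSS alone, yet still above the control mice. The granule genes Ngp and Camp fell further than calprotectin with EA, as did some stefin genes outside the set, but the granule gene Ltf did not. Ly6g had the most reads of the set in the control group and did not pass the test between the DSS + EA and DSS groups.

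Neutrophils mature in the bone marrow and make their granule proteins in a fixed order. Myeloperoxidase of the azurophilic granules is made first, in promyelocytes, then come the secondary granule proteins lactoferrin, cathelicidin and neutrophilic granule protein, and calprotectin, a pair of calcium-binding proteins that also binds zinc and manganese, fills the cytosol of the mature cell. Mature cells leave the marrow, follow chemokines that bind CXCR2 and enter injured tissue. Calprotectin protein in stool is used in the clinic as a measure of neutrophil entry into the inflamed gut.

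The mice were of strain C57BL/6J, with 3 in each group and 1 library per mouse. In the DSS group, 2.5% dextran sodium sulfate (DSS), which injures the colon epithelium, was given in the drinking water for 7 days. The DSS + EA group drank the same DSS and, after 5 days of modeling, received electroacupuncture (EA, a weak current through needles) at ST36, a point below each knee, once daily for 5 days, with 2 Hz and 0.2 mA applied for 30 minutes each time. The control group drank distilled water, and the control and DSS mice were held for the same 30 minutes without EA. The 5 days of EA ended with the killing of the mice. The age of the mice and the part of the colon taken were not given in the sources used here. Total RNA was sequenced as full-length cDNA on an Oxford Nanopore instrument, and 2627695 to 4235576 reads per mouse were counted on genes. CPM are counts scaled to a common library total with TMM factors, and 3 counts, the floor used for lower bounds, were worth 0.708 to 1.14 CPM before that scaling. In RNA from whole tissue, fewer neutrophils, less of a transcript per neutrophil and a change in reads from other cells cannot be told apart.

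The 9 genes lie on 5 chromosomes of the GRCm38 build, in the GENCODE M21 annotation. S100a8 (chr3:90668978-90670035, plus strand) and S100a9 (chr3:90692632-90695721, minus strand) are neighbors and have 3 exons each in their longest coding transcript. Camp (chr9:109847379-109849617, minus strand), Ngp (chr9:110419747-110423012, plus strand) and Ltf (chr9:111019271-111042767, plus strand) lie on a single stretch of chromosome 9 with other genes between them. Stfa2l1 (chr16:36156811-36161953, plus strand) stands between Csta1 and Gm5483 of the stefin cluster, and Retnlg (chr16:48872621-48874496, plus strand) stands beside Retnla. Ly6g (chr15:75155240-75159126, plus strand) follows Ly6c2. Mpo (chr11:87793581-87804413, plus strand) overlaps an antisense gene, Gm11505.

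The 250 bases before the RefSeq start of 5 of these genes are printed here (RefSeq, GRCm38.p6), because they stand for the patterns described in the results: both calprotectin genes, the granule gene that fell furthest, a gene with 0 reads in the control group, and the gene that departed from the rest. Sequences run 5′ to 3′ on the strand of the gene, and capitals mark matches on either strand to the letters TATAAA (bound by TBP), GAGGAAGT (PU.1) and TTGCNNAA (C/EBP), TBP being a general factor and PU.1 and C/EBP transcription factors of the myeloid lineage.
S100a8 (chr3:90668821-90669070, plus strand): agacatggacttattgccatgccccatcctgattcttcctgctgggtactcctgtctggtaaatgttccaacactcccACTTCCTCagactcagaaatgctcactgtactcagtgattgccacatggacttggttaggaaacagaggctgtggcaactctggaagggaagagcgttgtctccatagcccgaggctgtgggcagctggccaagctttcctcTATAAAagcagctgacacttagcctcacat
S100a9 (chr3:90695722-90695971, minus strand): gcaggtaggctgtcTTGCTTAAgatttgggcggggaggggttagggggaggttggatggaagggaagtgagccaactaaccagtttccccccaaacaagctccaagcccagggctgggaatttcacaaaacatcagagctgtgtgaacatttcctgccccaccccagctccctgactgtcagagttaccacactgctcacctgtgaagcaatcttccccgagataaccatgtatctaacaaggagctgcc
Ngp (chr9:110419558-110419807, plus strand): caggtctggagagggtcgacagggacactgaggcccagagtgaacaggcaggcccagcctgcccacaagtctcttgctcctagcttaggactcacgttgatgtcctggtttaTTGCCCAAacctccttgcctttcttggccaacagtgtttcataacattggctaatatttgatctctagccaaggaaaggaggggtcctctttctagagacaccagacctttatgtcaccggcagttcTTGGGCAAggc
Stfa2l1 (chr16:36156561-36156810, plus strand): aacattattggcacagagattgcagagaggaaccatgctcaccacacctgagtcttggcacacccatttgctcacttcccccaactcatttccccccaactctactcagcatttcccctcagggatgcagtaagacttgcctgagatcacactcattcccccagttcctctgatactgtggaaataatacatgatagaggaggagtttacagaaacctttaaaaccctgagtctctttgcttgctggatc
Ly6g (chr15:75155011-75155260, plus strand): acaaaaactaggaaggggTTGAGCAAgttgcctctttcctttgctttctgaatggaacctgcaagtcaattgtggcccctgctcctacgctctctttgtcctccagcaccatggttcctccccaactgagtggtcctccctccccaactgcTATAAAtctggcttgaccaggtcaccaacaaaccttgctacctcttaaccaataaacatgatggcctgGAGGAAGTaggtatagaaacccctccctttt
Matches to TATAAA were present in S100a8, 30 bases before the start, and in Ly6g, that is in 2 of the 9 genes, against 12.4% of 32851 promoters of the same length. The PU.1 letters were present in S100a8, Mpo and Ly6g, 3 of 9, against 2.44% of all promoters. The C/EBP letters were present in S100a9, Ngp, Ltf, Retnlg and Ly6g, 5 of 9, against 9.56% of all promoters. Ly6g has another RefSeq start, not printed (window chr15:75155079-75155328), which held the TATAAA and PU.1 letters but not the C/EBP letters. The set is counted by gene, with Ly6g counted if either window matched, and the shares are over promoters, so they are not fully alike. In Stfa2l1 and Camp none of these letters was found in this window. The printed matches did not overlap each other, and a match describes the letters only.

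First, the calprotectin genes were compared between the groups. S100a8 had 6, 6 and 1 reads in control mice 1, 2 and 3, then 5379, 72682 and 61439 reads in DSS mice 1, 2 and 3, and 2115, 1193 and 1176 reads in DSS + EA mice 1, 2 and 3. S100a9 had 0, 2 and 1 reads in the control mice, 1246, 23946 and 12825 reads in the DSS mice, and 662, 234 and 336 reads in the DSS + EA mice. For both genes the 3 groups did not overlap, the lowest DSS mouse was mouse 1, and it lay 2.69-fold (S100a8) and 1.99-fold (S100a9) above the highest DSS + EA mouse in CPM. In DSS mouse 2, S100a8 was the gene with the most reads in the library, with 1.72% of them (Wilson 95% confidence interval 1.70% to 1.73%), and in DSS mouse 3 it ranked 3, whereas in DSS mouse 1 it ranked 123.

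In the order control, DSS, DSS + EA, the group means of S100a9 were 0.349 ± 0.334, 3202 ± 2499 and 131.8 ± 61.1 CPM (SD, n = 3), and those of S100a8 were 1.30 ± 0.829, 12232 ± 9251 and 487.5 ± 140.1 CPM. Compared with the control group, S100a8 was higher in the DSS group by 13.11 ± 1.13 on the log2 scale (SE, adjusted p = 5.11e-05) and S100a9 by 13.13 ± 1.29 (adjusted p = 0.0001). The control group held 3 reads of S100a9 in all, and the ratio of the summed CPM-scaled counts, 11090, had an exact 95% counting interval of 3795 to 53779. Compared with the DSS group, S100a8 fell by 4.65 ± 0.77 in the DSS + EA group (25.1-fold, adjusted p = 0.00211) and S100a9 fell by 4.60 ± 0.83 (24.3-fold, adjusted p = 0.00305). Compared with the control group, the DSS + EA group was still higher by 8.47 ± 0.98 for S100a8 (adjusted p = 0.00271) and by 8.53 ± 1.19 for S100a9 (adjusted p = 0.00577). Intervals and floors cover counting error only and treat each read as a separate molecule. Whether some reads were PCR copies is not given in the sources used here. The p-values rest on the spread between mice, estimated in a single fit of all 9 mice, so each comparison also draws on the group outside it.

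**Figure D1:**
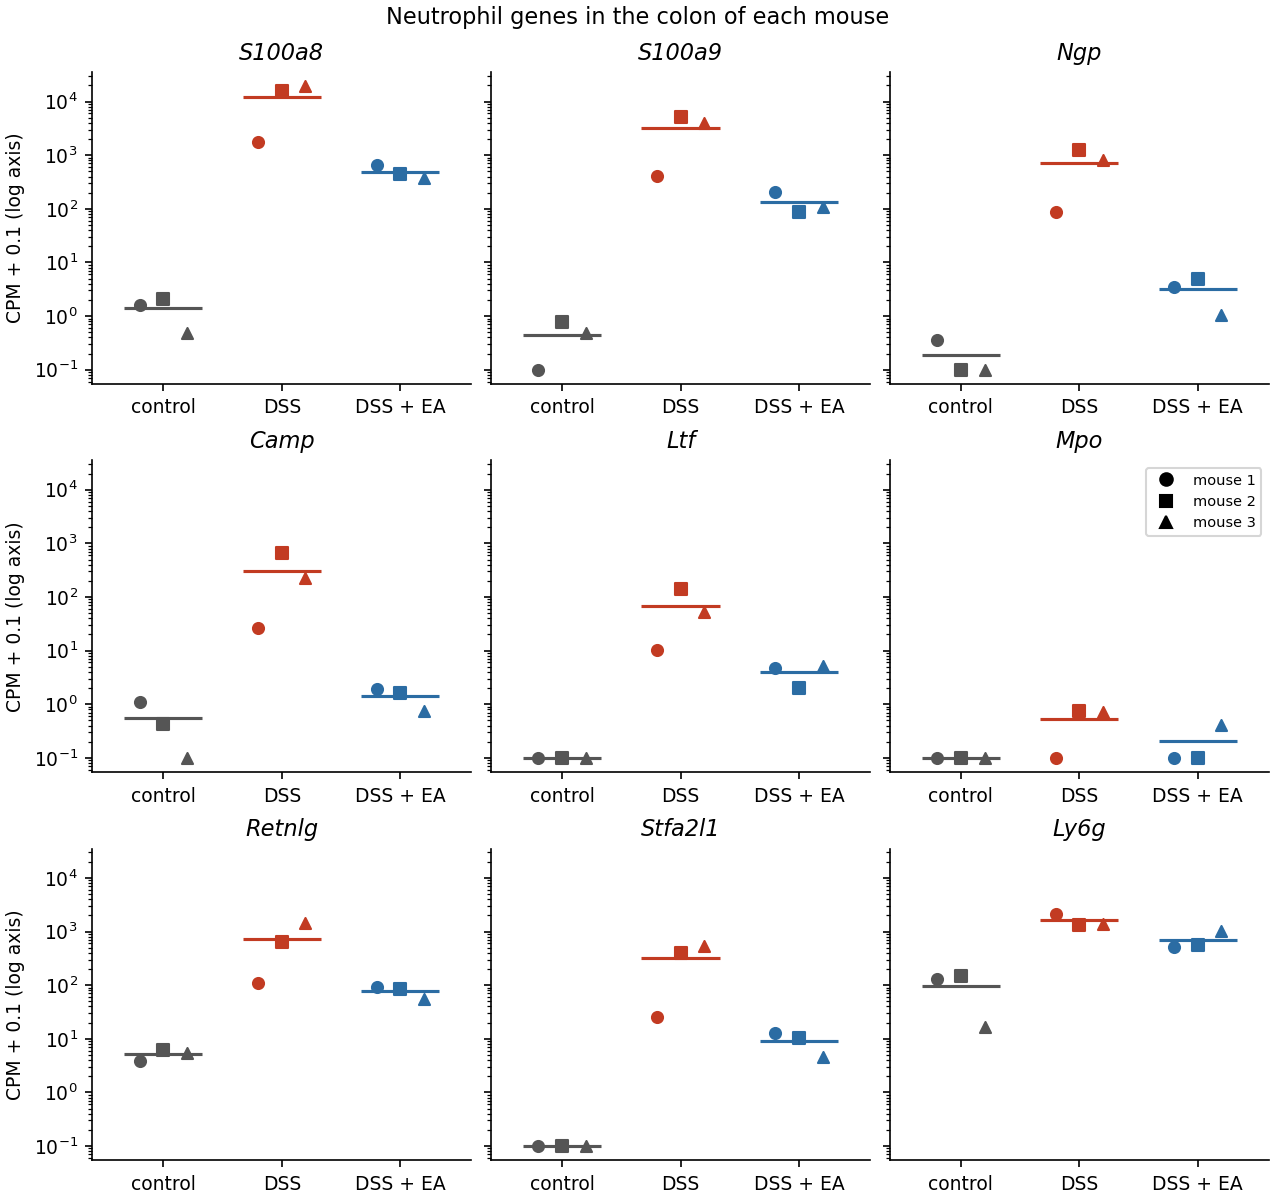
Level of each of the 9 genes in each mouse, as CPM + 0.1 on a log axis, by group; points are mice (shape gives the mouse number within its group, and same-numbered mice are different animals) and lines are group means. For S100a8 the 3 DSS mice sit above the 3 DSS + EA mice and both above the control mice, and for Ly6g the control mice sit far higher than for the other genes.

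Next, the granule genes were examined. Ngp, which encodes neutrophilic granule protein, had 1, 0 and 0 reads in the control mice, 269, 5816 and 2606 reads in the DSS mice, and 11, 13 and 3 reads in the DSS + EA mice. Camp, which encodes the antimicrobial peptide precursor cathelicidin, had 4, 1 and 0 reads, then 80, 3104 and 732, and then 6, 4 and 2 reads in the same order. For Camp the DSS + EA and control mice overlapped. For Ngp they did not, with 27 reads in all against 1, a ratio of 28.3 after scaling to the library totals with a counting interval of 4.66 to 1158. Ltf, which encodes the iron-binding protein lactoferrin, had 0 reads in all 3 control mice, 31, 652 and 166 reads in the DSS mice, and 15, 5 and 16 reads in the DSS + EA mice. For Ltf the DSS + EA mice were low but, unlike the control mice, none was at 0.

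Compared with the control group, the DSS group was higher by 12.31 ± 1.37 on the log2 scale for Ngp (adjusted p = 0.000187), 9.14 ± 1.31 for Camp (adjusted p = 0.000646) and 10.81 ± 1.68 for Ltf (adjusted p = 0.00183). With 1 control read of Ngp, the ratio of 7606 had a counting interval of 1365 to 300450, and for Ltf the DSS group lay at least 248-fold higher than the floor of 3 counts over the control mice. Compared with the DSS group, the DSS + EA group was 237.3-fold lower for Ngp (log2 fold change -7.89 ± 1.01, adjusted p = 0.000706), 228.9-fold lower for Camp (-7.84 ± 1.19, adjusted p = 0.00142) and 17.4-fold lower for Ltf (-4.12 ± 0.91, adjusted p = 0.0110). The lowest DSS mouse exceeded the highest DSS + EA mouse 17.8-fold for Ngp and 14.1-fold for Camp, but 1.96-fold for Ltf. Between the DSS + EA and control groups the log2 fold changes were 4.42 ± 1.76 for Ngp (adjusted p = 0.234), 1.30 ± 1.76 for Camp (adjusted p = 0.761) and 6.69 ± 2.27 for Ltf (adjusted p = 0.183), and these did not pass the test. Ltf was at least 12.6-fold above the control floor in the DSS + EA group.

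Mpo, which encodes the myeloperoxidase of azurophilic granules, had 3 and 2 reads in DSS mice 2 and 3, 1 read in DSS + EA mouse 3 and 0 reads in the other 6 mice, and it was not tested. Other genes of the same early stage were also scarce. Elane (neutrophil elastase) had 0, 13 and 3 reads in the DSS mice and 0 reads elsewhere, and Prtn3 (proteinase 3) had 4, 57 and 32 reads in the DSS mice against at most 4 in any other mouse. Mpo and Elane were therefore near the limit of detection, and Prtn3 was low, in the same mice in which S100a8 had 5379 to 72682 reads.

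The genes of mature neutrophils did not all follow calprotectin. Retnlg, a secreted protein gene of the resistin family, had 15, 18 and 14 reads in the control mice, 341, 2961 and 4676 in the DSS mice, and 306, 224 and 174 in the DSS + EA mice. Stfa2l1, a stefin (cysteine protease inhibitor) gene, had 0 reads in the control mice, 79, 1869 and 1701 in the DSS mice, and 41, 27 and 14 in the DSS + EA mice. For both genes the groups did not overlap, with DSS mouse 1 only 1.18-fold above the highest DSS + EA mouse for Retnlg and 2.04-fold above it for Stfa2l1. Compared with the control mice, Retnlg was 146.2-fold higher in DSS mice (log2 fold change 7.19 ± 0.88, adjusted p = 0.0003), and it was 9.53-fold lower in DSS + EA mice than in DSS mice (-3.25 ± 0.71, adjusted p = 0.00746). Stfa2l1 was at least 1065-fold above the control floor in the DSS group (fitted log2 fold change 13.04 ± 1.85, adjusted p = 0.0012), and 35.5-fold lower with EA (-5.15 ± 1.03, adjusted p = 0.00743). A fitted fold change against a group at 0 reads depends on the prior count and is not a bound.

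Ly6g, the surface antigen by which mouse neutrophils are usually recognized, stood apart. It had 504, 449 and 43 reads in the control mice, 6734, 5972 and 4506 in the DSS mice, and 1664, 1481 and 3268 in the DSS + EA mice. It was thus the gene of the set with the most reads in the control group (97.9 ± 71.3 CPM), control mouse 3 was well below the other two, and DSS mouse 1, the lowest DSS mouse for the other 7 genes tested, was the highest for Ly6g. The DSS mice differed from each other 1.67-fold for Ly6g, against 11.1-fold to 26.2-fold for the other 7 genes tested. DSS mice had 16.5-fold more Ly6g than control mice (log2 fold change 4.05 ± 0.69, adjusted p = 0.00158). The difference between the DSS + EA and DSS groups, -1.22 ± 0.62, did not pass the test (adjusted p = 0.148), although the 3 mice of each group did not overlap. That p crossed the threshold without control mouse 3 (adjusted p = 0.0251).

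Ly6g has close relatives, which bears on these counts. Its longest coding transcript (941 bases) aligned to the transcripts of 19 other genes of GENCODE M21, and to Ly6a with 81.6% identity over 942 aligned bases. Ly6a was itself abundant, at 380.4 ± 60.1, 1210 ± 152.1 and 2642 ± 670.3 CPM in control, DSS and DSS + EA mice, and it rose in both the DSS and the DSS + EA comparisons (adjusted p = 0.000572 and 0.00547). Stfa2l1 aligned to 15 other genes, Stfa2 being the closest with 96.5% identity over 367 bases, Retnlg aligned to Retnla (82.8%) and Retnlb (76.6%), and S100a8, Ngp and Camp aligned to no other gene. How reads of similar genes were divided is not given in the sources used here, so the Ly6g, Stfa2l1 and Retnlg counts are less certain than those of S100a8, Ngp and Camp, and the part of such reads in these values was not tested.

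In the DSS against control comparison, the 8 genes tested were called higher at an adjusted p under 0.05, where 21.5% of all 12566 genes were, and each of them had its 3 DSS mice above its 3 control mice, where 26.2% of all genes did. Ngp, Camp and Ltf passed the filter on low counts only through the DSS mice, in which they were high, so that the count over the set is a description and supports nothing. The median log2 fold change of the 8 genes was 11.56 (9.60 with the genes at 0 control reads set at their lower bounds), beside 0.02 over all genes. In the DSS + EA against DSS comparison, 7 of the 8 were called lower, where 18.3% of all genes were, and the 3 DSS + EA mice lay below the 3 DSS mice for each of the 8, where 23.3% of all genes did so. Their median log2 fold change was -4.63, beside -0.02 over all genes. By the DEG thresholds of the study (log2 fold change beyond 2.5, unadjusted P under 0.01), which are stricter in size, 8 of the 8 passed as higher in DSS mice and 7 as lower in DSS + EA mice, where 6.62% and 3.50% of all genes were. These comparisons share the DSS mice, so a high DSS value raises the first difference and lowers the second.

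Compared with the control group, the DSS + EA group was called higher for S100a8, S100a9, Retnlg and Ly6g, that is for 4 of 8 genes, where 3.00% of all genes were called higher. The 3 mice of each group did not overlap for 7 of the 8 genes (18.0% of all genes), the exception being Camp. By the DEG thresholds 5 of the 8 were higher, Stfa2l1 in addition, where 1.74% of all genes were. The median log2 fold change of the 8 genes was 5.56 (4.18 at the lower bounds). Retnlg was 15.3-fold higher (log2 fold change 3.94 ± 0.79, adjusted p = 0.0251), Ly6g was 7.12-fold higher (2.83 ± 0.66, adjusted p = 0.0467), and Stfa2l1 had a fitted log2 fold change of 7.89 ± 2.26 that did not pass the test (adjusted p = 0.118) and lay at least 28.6-fold above the control floor. The number called depended on single mice: it was 2 without control mouse 1, control mouse 2 or any 1 of the DSS + EA mice, and 7 without DSS mouse 1, when Ngp, Ltf and Stfa2l1 were called in addition. The calls for S100a8 and S100a9 remained in these fits, while Retnlg and Ly6g had adjusted p-values of up to 0.142 and 0.190. Retnlg was also not called without control mouse 3 (adjusted p = 0.0834), nor Ly6g without DSS mouse 2 (adjusted p = 0.0656).

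**Figure D2:**
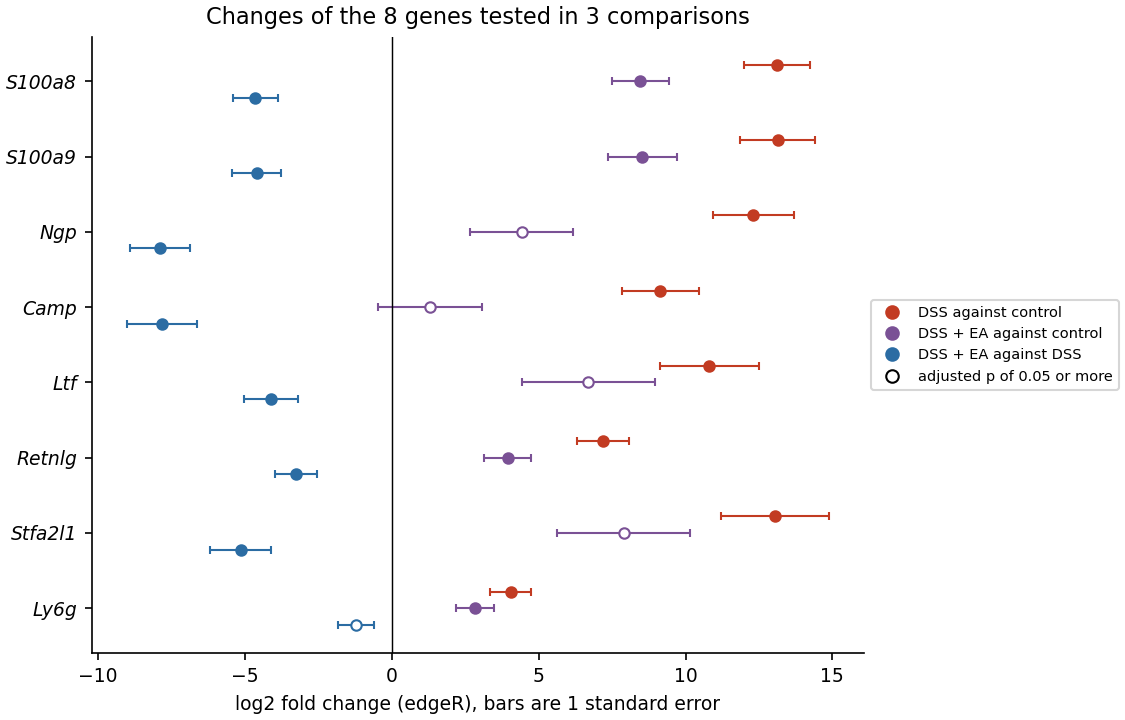
Log2 fold change of the 8 genes tested in the 3 comparisons (edgeR), with bars of 1 standard error; filled points have an adjusted p under 0.05 and open points do not. Ngp and Camp fell furthest between the DSS + EA and DSS groups, near -8, and Ly6g is the open point nearest 0 in that comparison.

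In the DSS + EA group, reads of pancreatic acinar enzymes moved with the treatment. All 8 acinar markers listed were called higher in DSS + EA mice than in DSS mice, where 17.2% of all genes were. Their summed level was 179.7 to 701.2 CPM in the control mice and 1.25 to 10.4 CPM in the DSS mice. It was 353.1, 26360 and 11448 CPM in DSS + EA mice 1, 2 and 3. The control sums were nearly all Clps (179.2, 701.2 and 252.5 CPM), and each of the other markers had at most 1 read per control mouse. In DSS + EA mouse 1 those other markers had 46 to 256 reads each. The 9 neutrophil genes together had 1467, 1188 and 1583 CPM in those DSS + EA mice, against 4555 to 27667 CPM in the DSS mice, so that mouse 1, which had the fewest acinar reads of its group, lay between the other two. For calprotectin alone the same mice had 845.2, 533.0 and 479.6 CPM, and mouse 1 was the highest of its group. With mouse 1 alone in its group, S100a8 had a log2 fold change of -4.22 against the DSS group (adjusted p = 0.0939) and 1 of the 8 genes, Ngp, was called lower; in that fit, added after the data were seen, the lone mouse is assumed to vary like the other groups.

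The relation of the genes to each other was then compared within libraries, as reads per 100 S100a8 reads, a scale that does not depend on the library total. S100a9 stood at 23.2, 32.9 and 20.9 in DSS mice 1, 2 and 3 and at 31.3, 19.6 and 28.6 in the DSS + EA mice, so the calprotectin subunits kept about the same proportion while both fell. On the log2 scale the ratio of S100a8 to S100a9 was 1.99 ± 0.34 (SD, n = 3) with DSS and 1.94 ± 0.36 with DSS + EA. Ngp stood at 5.00, 8.00 and 4.24 in the DSS mice and at 0.520, 1.09 and 0.255 in the DSS + EA mice. Camp stood at 1.49, 4.27 and 1.19 in the DSS mice and at 0.284, 0.335 and 0.170 in the DSS + EA mice. Neither gene overlapped between the groups, and both were thus lower relative to S100a8 with EA, on 3 to 13 Ngp reads and 2 to 6 Camp reads per DSS + EA mouse.

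Ltf did not share this pattern: it stood at 0.576, 0.897 and 0.270 in the DSS mice and at 0.709, 0.419 and 1.36 in the DSS + EA mice, which overlapped. Stfa2l1 overlapped as well, with 1.47 to 2.77 in the DSS mice and 1.19 to 2.26 in the DSS + EA mice. Retnlg went the other way, with 6.34, 4.07 and 7.61 in the DSS mice and 14.5, 18.8 and 14.8 in the DSS + EA mice. Neutrophil genes outside the set were mixed. Cxcr2, the chemokine receptor of mature neutrophils, was higher, with 0.0372 to 0.166 in the DSS mice and 0.898 to 1.19 in the DSS + EA mice. Mmp8 was higher as well (0.762 to 1.10, then 1.65 to 3.35). The stefin gene Stfa2 was lower without overlap (1.78 to 2.69, then 0.284 to 1.51), and Chil3, Prtn3, Elane, Padi4 and Csf3r overlapped. A gene that fell less than S100a8 rises on this scale, and Retnlg itself was lower with EA in CPM. Over the genes combined, the log2 ratio of Ngp, Camp, Ltf and Mpo to calprotectin was -3.95 ± 0.55 in the DSS mice (-4.40 to -3.33) and -6.08 ± 0.24 in the DSS + EA mice (-6.35 to -5.89). The log2 ratio of Retnlg, Ly6g and Stfa2l1 to calprotectin was -1.94 ± 1.79 and 0.34 ± 0.83, with overlap between the groups, and without Ly6g it was -3.95 ± 0.39 and -2.83 ± 0.29, without overlap. These ratios were not tested, since 3 mice against 3 cannot give an exact two-sided p below 0.1.

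**Figure D3:**
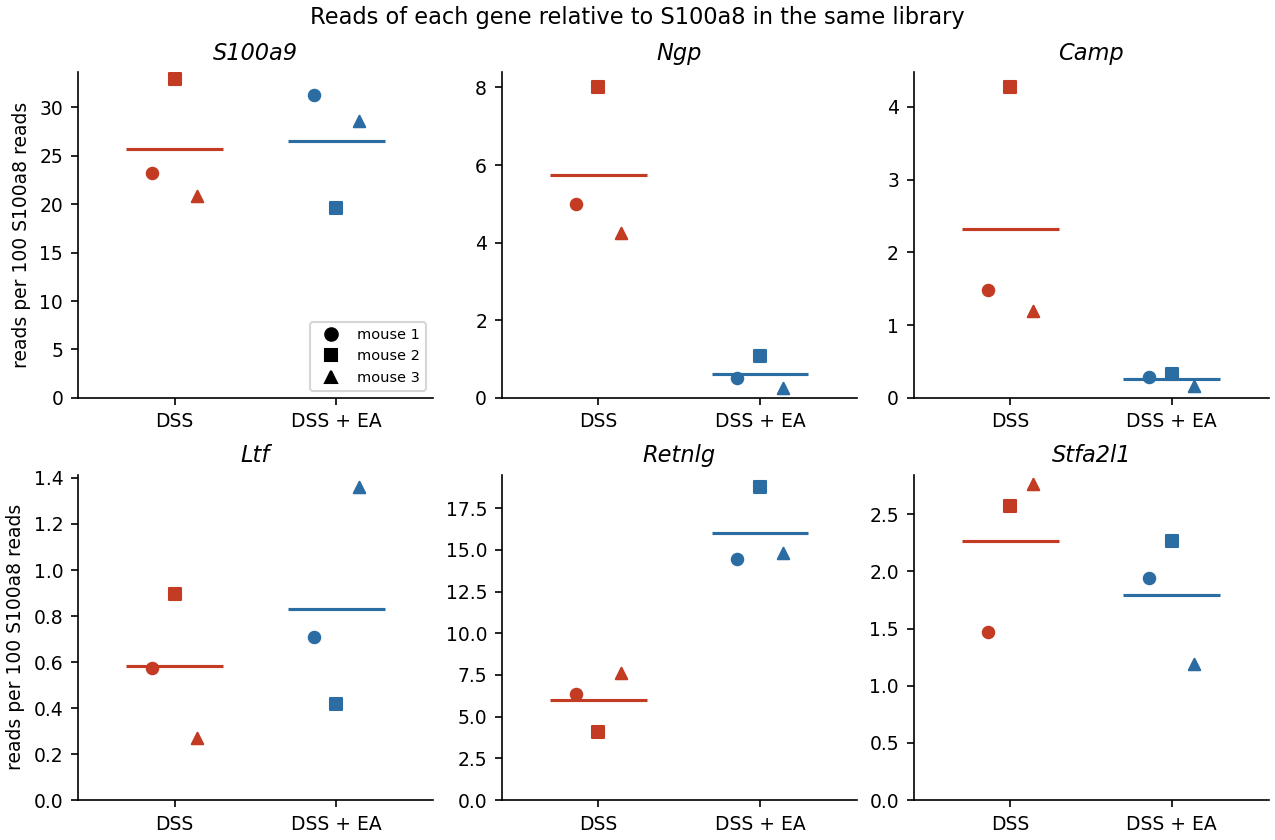
Reads of 6 genes per 100 S100a8 reads of the same library in the DSS and DSS + EA mice; points are mice and lines are group means, and each panel has its own axis from 0. Ngp and Camp were lower in the 3 DSS + EA mice than in the 3 DSS mice, Retnlg was higher, and S100a9, Ltf and Stfa2l1 overlapped.

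The depth behind these falls can be read from the summed reads. The DSS + EA to DSS ratio of reads, summed over the mice and divided by the summed library totals after TMM scaling, was (with its exact 95% counting interval) 0.0385 (0.0374 to 0.0397) for S100a8 and 0.0388 (0.0366 to 0.0411) for S100a9. It was 0.00372 (0.00245 to 0.00542) for Ngp and 0.00367 (0.00189 to 0.00642) for Camp. It was 0.0508 (0.0353 to 0.0709) for Ltf and 0.0269 (0.0214 to 0.0335) for Stfa2l1. By counting alone the intervals of Ngp and Camp thus lay below those of the other genes tested. That of Mpo, not tested, was 0.00506 to 2.14 on 1 read against 5, and overlapped both. The spread between the DSS mice, 11.1-fold or more for the genes with ratios given above, is not in these intervals.

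Per kilobase of the longest coding transcript, S100a8 led the set in the DSS group, at 25169 CPM per kb (3561 to 39453 among the mice), ahead of S100a9 at 6170 (772.3 to 10025), Ly6g at 1725 (1379 to 2302), Retnlg at 1244 (185 to 2461) and Stfa2l1 at 765.6 (60.7 to 1267). Ngp at 590.2 and Camp at 408.4 CPM per kb followed, then Ltf at 24.7 and Mpo at 0.155. Neighbors in this order overlapped between mice, apart from Ltf and Mpo. In the DSS + EA group the order began with S100a8 (1003 CPM per kb, 767.5 to 1325), Ly6g (742.6, 538.2 to 1102), S100a9 (254.0, 168.4 to 388.2) and Retnlg (130.4, 93.1 to 157.1), of which S100a8 overlapped with Ly6g. In the control group Ly6g led, with 104.1 CPM per kb (17.5 to 158.6), ahead of Retnlg at 8.52 (6.43 to 10.1) and S100a8 at 2.68 (0.789 to 4.10).

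Other neutrophil genes were examined beside the set. Of 23 listed, 17 were tested, of which 16 rose in the DSS group compared with the control group (of all genes, 21.5% were called higher). In the DSS + EA group 13 fell and 1 rose compared with the DSS group (of all genes, 18.3% were called lower and 17.2% higher). Hp (haptoglobin), Lcn2 (lipocalin 2, which binds bacterial siderophores), Il1r2 (a decoy receptor for interleukin 1) and Chil3 (a chitinase-like protein) had the smallest P in the DSS comparison, with log2 fold changes of 7.92 ± 0.54, 8.92 ± 0.89, 8.30 ± 0.83 and 10.69 ± 1.14, and some of them are made by epithelium or macrophages as well. All 4 fell with EA, with log2 fold changes of -3.60 ± 0.43, -4.24 ± 0.71, -4.17 ± 0.64 and -5.43 ± 0.83. Cd177, a neutrophil surface protein, was the gene that rose with EA (log2 fold change 1.03 ± 0.25, adjusted p = 0.0116), with 447, 508 and 302 reads in the control mice, 319, 449 and 220 in the DSS mice and 568, 392 and 726 in the DSS + EA mice. Like Ly6g, it was thus abundant in the control mice, whose Ngp and Ltf reads were at or near 0. Cxcr2 had 2, 81 and 102 reads in the DSS mice and 19, 14 and 14 in the DSS + EA mice, and its log2 fold change of -1.69 ± 0.84 did not pass the test (adjusted p = 0.138). In DSS + EA mice, 5 of the 17 were called higher than in control mice, where 3.00% of all genes were. They were Hp, Lcn2, Il1r2, Chil3 and Mmp8 (a collagenase of neutrophil granules). Their number depended on single mice. It was 1 without control mouse 1 or 2, 2 without control mouse 3 or DSS + EA mouse 1 or 3, 3 without DSS + EA mouse 2, 9 without DSS mouse 3 and 13 without DSS mouse 1.

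**Figure D4:**
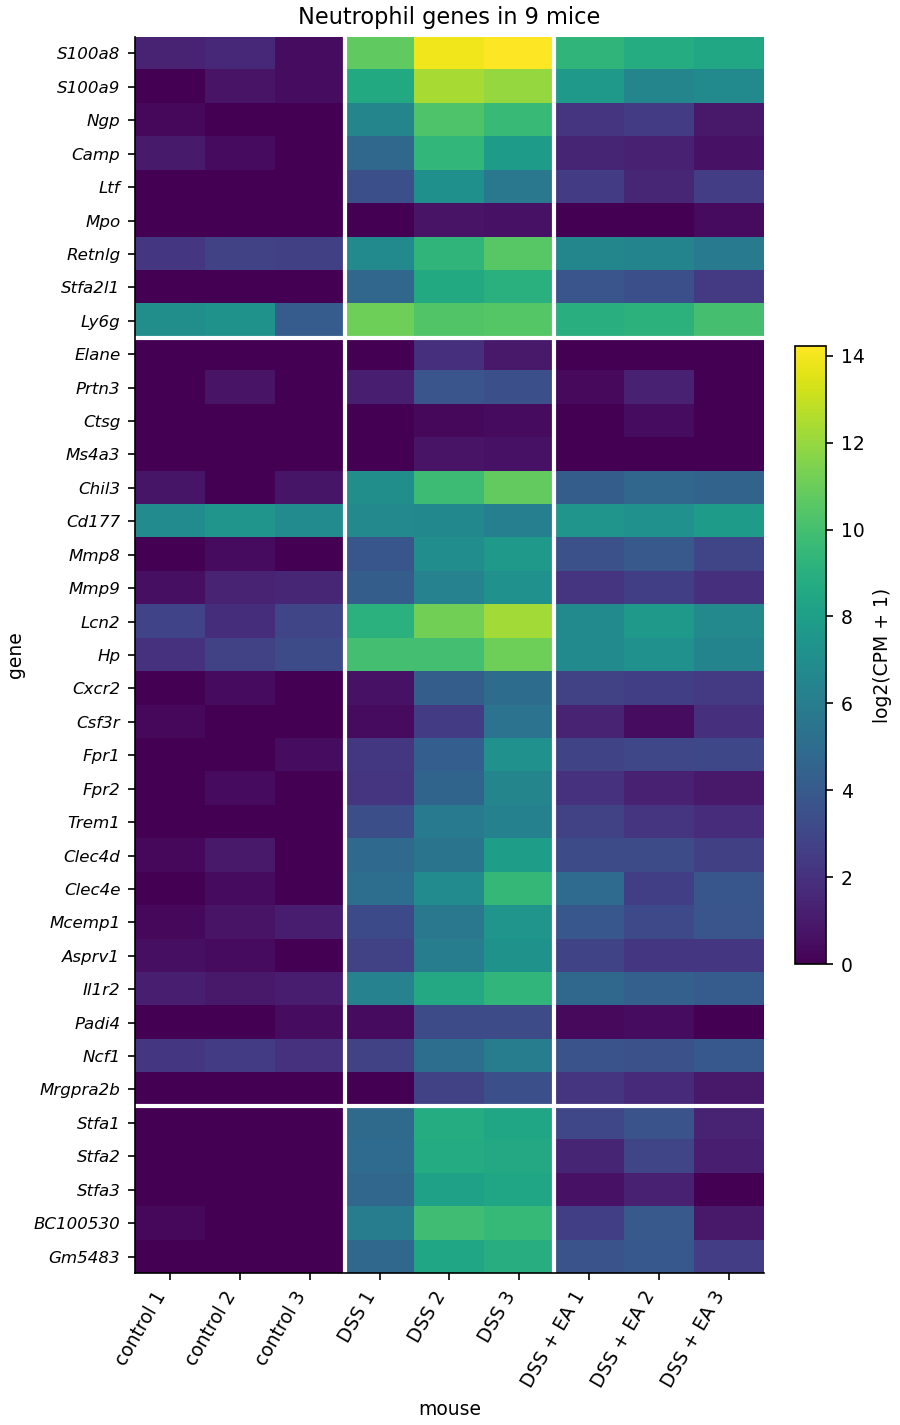
Level of the 9 genes (top), other neutrophil genes (middle) and the 5 stefins Stfa1, Stfa2, Stfa3, BC100530 and Gm5483 (bottom) in each mouse, as log2(CPM + 1), from dark (low) to light (high). DSS mouse 1 is darker than DSS mice 2 and 3 for most rows, and Ly6g and Cd177 have the highest mean levels in the control mice among the rows drawn.

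The genes most like the set over the 9 libraries, by root mean square distance of centered log2 CPM from the mean of the 8 genes, were Gm5483 (0.444), Il1r2 (0.484), Mmp3 (0.623), Lcn2 (0.659) and Stfa1 (0.665). Among the 8 genes, Stfa2l1 lay nearest to the mean of the others (0.521) and S100a8 and Ly6g furthest from it (2.19 and 2.30). These distances describe 9 libraries in 3 groups and carry no test.

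The relatives of these genes were then compared, family by family. Of 14 other S100 genes, 10 were tested, and compared with the control group 2 rose and 2 fell in the DSS group. Both counts were near the shares over all genes, of which 21.5% were called higher and 19.5% lower. Between the DSS + EA and DSS groups, 17.2% of all genes were called higher and 18.3% lower. S100a4 rose by 3.40 ± 0.40 and S100a11 by 2.06 ± 0.20, and both fell with EA (-3.07 ± 0.39 and -0.88 ± 0.20). Of 10 stefin genes listed, 7 were tested, and all of these rose in the DSS group and 6 fell with EA. With EA, Stfa3 (0 to 4 reads per DSS + EA mouse), Stfa2 and BC100530 fell 304.5-fold, 88.2-fold and 84.0-fold, beside 25.1-fold for S100a8. Stfa1 fell 39.9-fold, Gm5483 27.3-fold, Cstb 2.73-fold and Csta1 2.15-fold, the last not passing the test. Gm5483, beside Stfa2l1, had 0 reads in the control mice, 81, 1546 and 1503 in the DSS mice and 37, 38 and 16 in the DSS + EA mice, and Stfa2 had 0 reads, then 96, 1955 and 1251, and then 6, 18 and 4. The other resistin genes went against Retnlg: Retn, Retnla and Retnlb were lower in the DSS group (log2 fold changes -2.43 ± 0.65, -4.56 ± 0.73 and -2.85 ± 1.00). Retnlb, a goblet cell protein gene, had 9132, 23893 and 7995 reads in the control mice and 5005, 795 and 199 in the DSS mice. Of 7 Ly6 relatives tested, 3 rose and 1 fell in the DSS group, and 3 rose and 1 fell with EA. Ly6e rose with EA by 1.89 ± 0.19, and Ly6c1, a gene of endothelial cells and some leukocytes, fell by 0.74 ± 0.22.

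Next came the signals that release and attract neutrophils. All 9 tested of 12 listed rose in the DSS group, and 8 fell with EA. Of all genes, 21.5% were called higher in the DSS group and 18.3% lower with EA. Csf3, which encodes the growth factor G-CSF, had 0 reads in the control mice, 495, 1255 and 692 in the DSS mice and 8, 6 and 5 in the DSS + EA mice. Cxcl1, a ligand of CXCR2, had 2, 2 and 0 reads, then 1255, 3111 and 1322, and then 52, 57 and 65. DSS mouse 1 had 159.2 CPM of Csf3 and 403.7 CPM of Cxcl1, beside 216.0 to 272.7 and 412.6 to 675.9 CPM in the other DSS mice, so for this pair it stood closer to them than it did for S100a8. It lay further below them for Cxcl2 (205.2 CPM, beside 981.9 and 1026 CPM), Cxcl3 (8.04, beside 91.3 and 75.5 CPM) and Il1b (36.7, beside 151.0 and 269.6 CPM). Il1b, the interleukin 1 beta gene, had a log2 fold change of -1.10 ± 0.69 with EA that did not pass the test (adjusted p = 0.230). Among transcription factors of the granule stages, 4 of 5 tested rose in the DSS group and the same number fell with EA. Cebpd rose by 3.23 ± 0.47 and fell by 2.88 ± 0.46, and Spi1, which encodes PU.1, rose by 4.39 ± 0.84 and fell by 3.30 ± 0.78. Cebpe and Gfi1, which act at the granule stages in the marrow, had at most 3 and 5 reads in any mouse and were not tested.

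Receptors and adaptors of calprotectin were mixed. Of 7 tested, 4 rose and 1 fell in the DSS group, and with EA 2 fell and 1 rose. Of all genes, 21.5% were called higher and 19.5% lower in the DSS group, and 18.3% lower and 17.2% higher with EA. Apart from the 4 that rose, these counts were near those shares. Itgam, the integrin subunit CD11b, rose by 5.76 ± 0.92 with DSS and fell by 4.12 ± 0.80 with EA. Bsg, which encodes basigin, a binding partner of S100A9, was lower in the DSS group (log2 fold change -1.78 ± 0.19, adjusted p = 0.000149) and higher with EA (1.40 ± 0.19, adjusted p = 0.00083). For Tlr4, the receptor to which calprotectin is known to bind, the log2 fold change was 0.06 ± 0.38 in the DSS group (adjusted p = 0.913) and 0.70 ± 0.37 with EA (adjusted p = 0.164).

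Markers of other cells moved with the same groups. Beside the counts that follow, 21.5% of all genes were called higher and 19.5% lower in the DSS group. Between the DSS + EA and DSS groups, 17.2% were called higher and 18.3% lower. The colon epithelium markers had 10707 to 27633 summed CPM in the control mice, 6916, 2750 and 1379 in DSS mice 1, 2 and 3, and 7539 to 14271 in the DSS + EA mice. By this sum the DSS mice were lowest and mouse 1, lowest in calprotectin, was the highest of them. A large part of it was Car1, with 5243 to 21526, 637.9 to 2969 and 2739 to 9990 CPM in control, DSS and DSS + EA mice. Of the 11 markers, 6 fell and 5 were not called in the DSS group. With EA, 3 rose and 8 were not called. Of 10 monocyte and macrophage markers, 9 rose in the DSS group and 7 fell with EA, with 471.4 to 491.3 summed CPM in control mice, 1511 to 2860 in DSS mice and 959.2 to 1052 in DSS + EA mice. All 4 red cell markers tested of 6 rose in the DSS group and fell with EA (95.8 to 116.7, 1434 to 3819 and 144.3 to 213.4 summed CPM). Of the 2 platelet markers tested of 5, 1 rose and both fell (44.2 to 58.3, 336.5 to 1037 and 32.7 to 69.8 summed CPM). In DSS mice 1, 2 and 3 the red cell markers had 3819, 1434 and 1860 summed CPM. The platelet markers had 336.5, 661.8 and 1037 CPM, and the monocyte and macrophage markers 1511, 1748 and 2860 CPM. DSS mouse 1, the lowest DSS mouse in calprotectin, was thus highest in the red cell sum and lowest in the platelet and the monocyte and macrophage sums. Between the DSS + EA and control groups no red cell or platelet marker tested was called. Neither were Ngp, Camp, Ltf and Stfa2l1, whereas S100a8, S100a9, Retnlg and Ly6g were. Smooth muscle markers had 2379 to 2961, 972.5 to 1785 and 1772 to 1899 summed CPM, and 4 of 5 fell in the DSS group. The part of these cells in the results was not tested.

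Squamous epithelium and other granulocytes, which can also hold calprotectin or granule proteins, left few reads. The 10 squamous epithelium markers had 1.78 to 2.33 summed CPM in the control mice, 1.29 to 6.87 in the DSS mice and 1.22 to 2.54 in the DSS + EA mice, none passed the filter on low counts, and Krt4 was at 0 in every mouse. Of 8 eosinophil markers, 2 were tested and summed CPM lay between 4.07 and 12.4 in all mice, with Epx and Ear1 at 0 throughout. Among the 2 tested, 1 gene, Il5ra, was called higher in the DSS group, where 21.5% of all genes were. Of 8 mast cell markers, 1 was tested and summed CPM lay between 1.53 and 8.47, with Ms4a2 at 0 throughout.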

How the data were processed

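The authors deposited raw read counts, whole numbers for each gene, from 1 Oxford Nanopore cDNA library per mouse. The submitters' processing notes name the build mm10, and the aligner, the counting tool and the use of strand were not given in the sources used here. Of the 27733 lines of the table, 14 were left out because they carry no counts. Counts of 9 mice (2627695 to 4235576 per library) entered the quasi-likelihood F test of edgeR 4.0.16 (R 4.3.3), after TMM scaling and filterByExpr by group (minimum count 10). All mice shared one fit, its only term was the group, and the prior count was 0.125. A gene was called at a Benjamini-Hochberg adjusted p under 0.05 over the 12566 genes tested. Standard errors are the log2 fold change divided by the square root of F. Log ratios used a pseudocount of 0.5. Lower bounds used 3 counts over the group, and intervals are Wilson or exact at 95%.

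The 9 genes, the gene lists and the tests were chosen with earlier results of these data known. Each gene of the set is named, and from each list the genes with the smallest P, or of special interest, are named. GENCODE M21 gave positions and transcripts, which were compared with BLAST 2.17.0 at an E-value of 1e-10, and RefSeq gave promoters. On simulated counts for 12566 genes with 200 changed, the DSS against control fit found 65.5% of the changed genes and called 8 unchanged genes. DESeq2 1.42.0 found 74% of the changed genes and called 25 unchanged genes. Alternatives were DESeq2, RLE or library totals, the DEG thresholds of the study's methods (log2 fold change beyond 2.5 and unadjusted P under 0.01), other filters, a fit of only the 2 groups compared, a prior count of 2, the replicate number as a block, and each mouse left out. No test of outlying mice was made, since each group has only 3.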

Additional observations from a re-analysis of the deposited data

How the results depend on the processing

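The number of the 9 genes called did not move by over 1.5 times in the DSS against control comparison (8 without any single mouse) or, with all DSS + EA mice in the fit, in the DSS + EA against DSS comparison (7 to 8), and no result changed direction in any alternative apart from the ratio of S100a8 to S100a9. In the DSS + EA against control comparison it was 4, and 2 to 7 with single mice left out. With only DSS + EA mouse 1 in its group, it was 1 against the DSS group and 2 against the control group. Of the other neutrophil genes, 16, 14 and 5 were called in the 3 comparisons, and 15 to 19, 10 to 20 and 1 to 13 with single mice left out. The 5 became 10 by the DEG thresholds, 13 by DESeq2, 8 with no filter on low counts and 12 with only the 2 groups in the fit. With only DSS + EA mouse 1, 1 was called in either comparison. Among values of single genes, 412 kept their side of the threshold, 23 lost a call and 10 gained one. Ly6g against the control group lost its call with library totals (adjusted p = 0.0535) and with a mean of at least 20 counts (adjusted p = 0.0608), and against the DSS group it gained one with only the 2 groups in the fit (adjusted p = 0.0394). Stfa2l1 against the control group gained one by DESeq2, the DEG thresholds, no filter and only the 2 groups in the fit. The cause was not tested. The difference of the granule ratio between the groups was -2.12 on the log2 scale (-2.35 to -1.81 with single mice left out), that of the mature ratio 2.28 (1.67 to 3.30, and 1.11 without Ly6g, chosen after seeing the data) and that of S100a8 to S100a9 -0.05 (-0.25 to 0.09, so that its sign rested on single mice). With 0 to 13 reads per mouse, Ngp and Camp in the control and DSS + EA groups are limited by depth.

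The labels number the mice of each group, and mice with equal numbers are different animals. The correlations of their deviations lay between -0.16 and 0.11, so the mice share only a number. With the replicate number as a block, 8, 7 and 3 of the 9 genes and 15, 12 and 5 of the other neutrophil genes were called, and the log2 fold change of Ly6g between the DSS + EA and control groups, 3.01, had an adjusted p of 0.0920.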
